A study of Mus musculus with 12 samples.

Results

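The histone and DNA modifying enzymes described here are the genes whose symbol starts with Kmt, Kdm, Setd, Dnmt, Tet, Hdac, Sirt, Prmt or Kat followed by a digit, together with Ezh1, Ezh2, Eed, Suz12 and Jarid2 of the Polycomb complex PRC2. Setd4, Kdm5c, Kdm5d and Kdm6a were left out by the same rule, and a probe set had to carry 1 gene symbol. The rule itself used names alone and no measured value, but it was chosen with earlier results of these data known. It found 66 genes, on 128 probe sets, among 17097 genes that had such a probe set. Of these, 62 passed the filter on low values, which asked for an intensity above the array's own 40th percentile on at least 3 of the 12 arrays. The other 4 (Kdm4a, Kat6b, Hdac9 and Hdac11) had mean intensities between 10.4 and 16.1 in every group on each of their probe sets and were not tested.

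Total RNA of 12 mouse samples had been hybridised to 1 Affymetrix array each, with 3 arrays in each of 4 groups. The B6 group was wild type hematopoietic cells. The Ts1Cje group was hematopoietic cells of the Ts1Cje mouse, a Down syndrome model with part of chromosome 16 in an additional copy, and 0 of the 62 genes lie on that chromosome. The groups titled B6 + Trib1 WT and Ts1Cje + Trib1 WT, shortened here to B6 Trib1 and Ts1Cje Trib1, were acute myeloid leukaemia (AML) cell lines that expressed Trib1, a pseudokinase known to bring the transcription factor C/EBP alpha to degradation. The medium of all 4 groups was IMDM with 5 ng/ml IL-3 and 10% fetal bovine serum, no treatment was given, and 100 ng of RNA was labelled per array. The labels give neither the age of the mice, nor how Trib1 was introduced, nor whether the 3 arrays of a group came from separate animals, clones or cultures, and the p-values can therefore reflect only how these samples spread, which may be technical. Trib1 expression and the leukaemic cell line went together and cannot be told apart.

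Enzymes of this kind write or erase chemical marks on chromatin. DNA methyltransferases (Dnmt) methylate cytosine and Tet enzymes oxidise the methyl group. Lysine methyltransferases (Kmt, Setd and the Ezh subunits of PRC2), lysine demethylases (Kdm), acetyltransferases (Kat), deacetylases (Hdac and Sirt) and arginine methyltransferases (Prmt) act on histones and often on other proteins. In blood formation and in AML several of them, among them Dnmt3a, Tet2, Ezh2 and the Kmt2 family, are known as regulators of stem cell renewal and as frequent sites of mutation.

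Pairwise correlations across genes ran from 0.997 to 0.999 within a group and from 0.915 to 0.993 between groups. The haematopoietic markers Ptprc, Spi1, Laptm5 and Coro1a all passed the filter, with a summed intensity between 6644 and 8534 on the 12 arrays. Summed levels of cell type markers differed between groups, which cannot tell the number of cells of a type from their RNA per cell. Summed over 7 B cell markers the intensity was 4298 to 4492 on B6 arrays, 1548 to 1731 on Ts1Cje, 173 to 199.9 on B6 Trib1 and 183 to 202 on Ts1Cje Trib1. Summed over 8 myeloid markers it was 17419 to 17751 on B6 arrays, 23097 to 23864 on Ts1Cje, 14569 to 14776 on B6 Trib1 and 8407 to 8528 on Ts1Cje Trib1. The sum of 5 mast cell and basophil markers was 2142 to 2200 on B6 arrays and 3847 to 4120 on Ts1Cje. On B6 Trib1 and Ts1Cje Trib1 arrays it was 16356 to 16620 and 19071 to 19653. For 5 megakaryocyte markers it was 5741 to 5910 on B6 arrays and 4562 to 4770 on Ts1Cje. On B6 Trib1 and Ts1Cje Trib1 arrays that sum was 9162 to 9401 and 8074 to 8331. Of 6 stroma markers, Col1a1, Col1a2 and Col3a1 did not pass the filter. The other 3 summed to 418 to 449.5 on B6 arrays, 201 to 239.8 on Ts1Cje, 91.8 to 99.2 on B6 Trib1 and 86.7 to 96.5 on Ts1Cje Trib1, with Sparc and Cxcl12 at 334 and 65.0 in B6 and at 158 and 34.3 in Ts1Cje.

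The enzymes were mostly well expressed and their levels differed little. Of the 62, 52 had a mean intensity of 100 or more and 6 of 1000 or more, and their median rank by intensity stood at percentile 68.3 of the 12560 tested genes. The highest group mean was a median of 1.26 times the lowest, was under 1.3 times the lowest for 37 genes and was at least 2 times the lowest for 5. This ratio was not computed for all genes. Differences below are on the scale of log2(intensity + 15), which draws the differences of dim genes towards 0. Adjusted p-values are from limma with Benjamini-Hochberg adjustment over all 12560 genes, and a gene is called higher or lower at an adjusted p under 0.05.

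In cells without Trib1, the Ts1Cje background had lower levels of most of these enzymes. Of the 62, 38 (61.3%) were called lower in Ts1Cje than in B6, against 29.3% of all genes tested. Another 5 (8.06%) were called higher, against 23.3% of all genes, and 3 without array 1 or 3 of B6 or array 3 of Ts1Cje. The median log2 difference of the 62 was -0.20, and that of all genes was 0.01. Among genes with a mean intensity of 100 or more it was -0.24 for 52 members and -0.06 for 7628 genes. Of these, 36 of the 52 members and 2915 of the 7628 genes were called lower, and 4 and 1840 were called higher. The differences were small in size: Dnmt3b and Ezh2 were the 2 called members that differed by 1.5-fold or more, as did 5.62% of all genes. Ts1Cje had the lowest of the 4 group means in 33 of the 62 members (53.2%), against 30.0% of all genes. All 3 Ts1Cje arrays lay below the other 9 arrays for 22 members (35.5%), against 16.2% of all genes.

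The balance of calls depended on how arrays were scaled. With each array centred on the median of its kept probe sets, an alternative added after the data were seen, 29 members were lower and 13 higher, while of all genes 4719 were higher and 2538 lower. The median of all genes then moved from 0.01 to 0.09. With quantile normalization 34 members were lower and 8 higher. The median of the kept genes on the log2 scale was 7.52, 7.40 and 7.44 on the 3 Ts1Cje arrays and lay between 7.52 and 7.56 on the B6 arrays. In the same comparison 6 of 7 B cell, 5 of 5 megakaryocyte, 5 of 6 stem and progenitor, 4 of 7 T and NK cell, 2 of 3 stroma, 1 of 3 erythroid and 6 of 13 proliferation markers were lower. Higher were 8 of 8 myeloid markers, 4 of 5 mast cell and basophil markers and 1 of 4 general haematopoietic markers. The stem and progenitor genes Cd34 and Meis1 went from 382 and 214 in B6 to 122 and 76.0 in Ts1Cje. Summed proliferation markers ran from 18361 to 18594 in B6 and from 16741 to 17192 in Ts1Cje. The part of these cell type and proliferation markers in the result was not tested, and fewer cells of a type cannot be told apart from less RNA per cell.

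**Figure D1:**
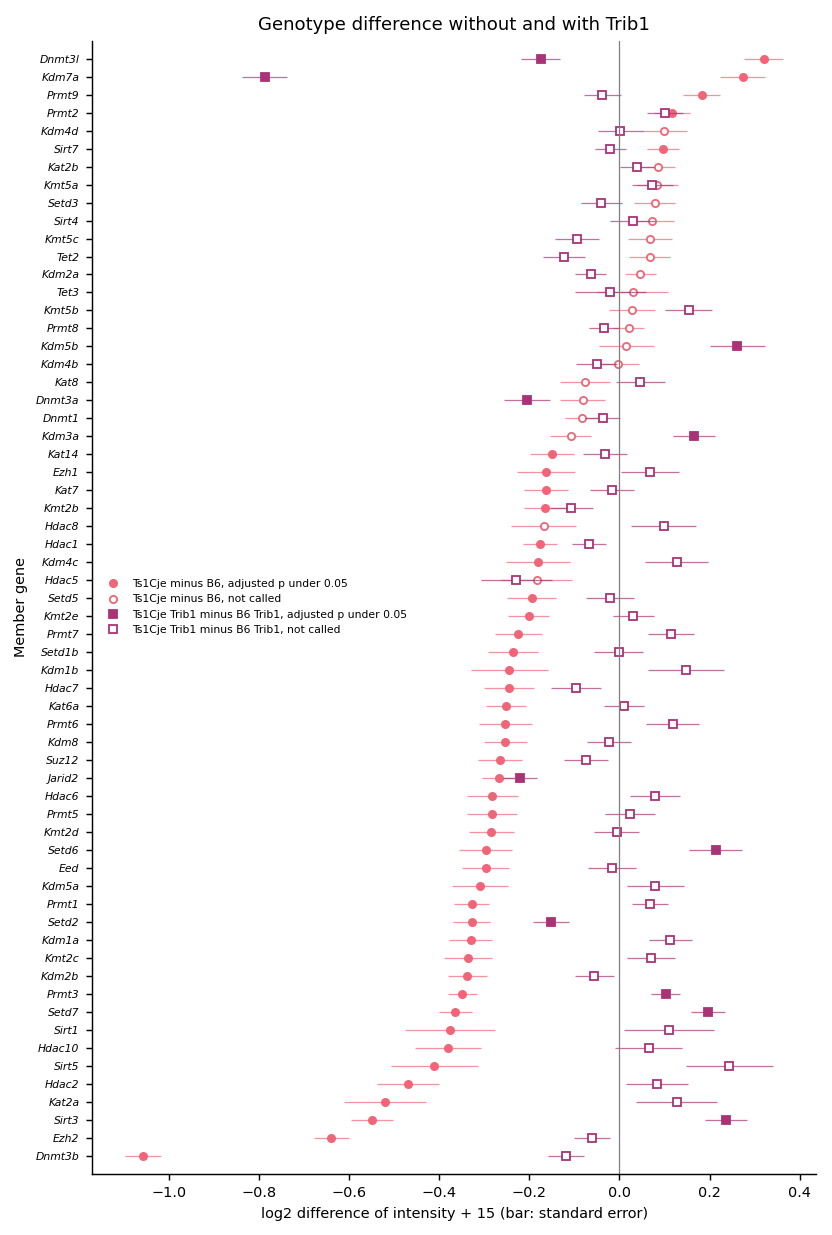
Log2 difference of intensity + 15 for each of the 62 tested enzymes between Ts1Cje and B6 (circles) and between Ts1Cje Trib1 and B6 Trib1 (squares), with 3 arrays per group; bars are standard errors and filled symbols passed at an adjusted p under 0.05. Without Trib1, 38 genes are filled to the left of 0 and 5 to the right, and with Trib1 5 and 6.

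Between the AML lines the genotype difference was small. Of the 62 members, 6 (9.68%) were called higher in Ts1Cje Trib1 than in B6 Trib1, against 11.9% of all genes, and 5 (8.06%) were called lower, against 9.63%. Without array 2 of B6 Trib1 3 were higher, and with quantile normalization 8 were lower. Their median difference was 0.01. Only Kdm7a among the called members differed by 1.5-fold or more, as did 2.48% of all genes. Of the 38 members that were lower without Trib1, 32 (84.2%) were not called in the lines, against 76.4% of all genes lower without Trib1. Jarid2 and Setd2 were lower there too, and Setd6, Setd7, Sirt3 and Prmt3 were higher. The interaction subtracts the Ts1Cje minus B6 difference from the difference between the lines. It was positive and passed for 33 members (53.2%), against 28.4% of all genes, and negative for 4 (6.45%), against 20.2%. Among genes with a mean intensity of 100 or more, it was positive for 30 of 52 members and 2798 of 7628 genes. It was negative there for 3 and 1591. Its balance moved with the scaling as well, to 23 positive and 9 negative with centring over the kept probe sets and to 28 and 8 with quantile normalization.

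**Figure D2:**
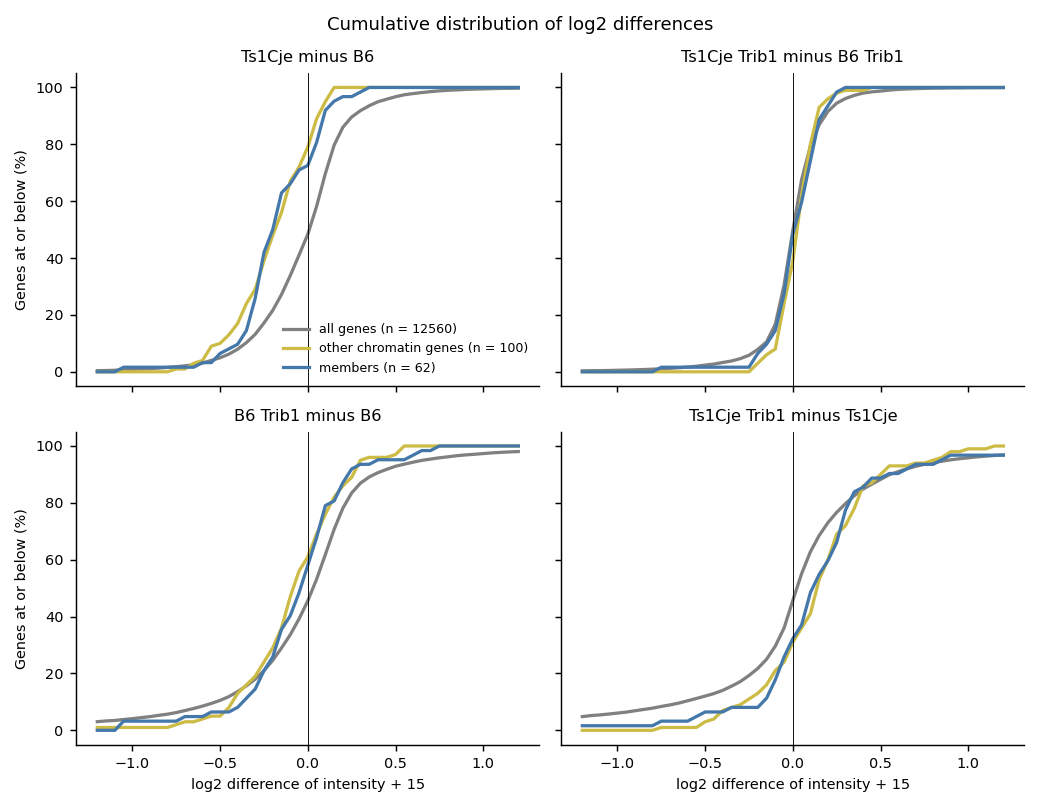
Cumulative share of genes (percent) at or below a log2 difference of intensity + 15, in the 4 pairwise comparisons, for the 62 enzymes, 100 other chromatin genes and all 12560 tested genes. In the Ts1Cje against B6 panel the curve of the enzymes, with a median of -0.20, lies to the left of that of all genes, with a median of 0.01.

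The 4 DNA methyltransferase genes did not move together. The de novo enzyme Dnmt3b showed the largest fall of any member in Ts1Cje cells. The 250 bases before its annotated start, from RefSeq on GRCm38.p6 at chr2:153649199-153649448 on the plus strand, are shown because the level changed most there. They hold 21 CG pairs and no match to the motifs searched, which are spelled out with the promoters of all members further on.
Dnmt3b: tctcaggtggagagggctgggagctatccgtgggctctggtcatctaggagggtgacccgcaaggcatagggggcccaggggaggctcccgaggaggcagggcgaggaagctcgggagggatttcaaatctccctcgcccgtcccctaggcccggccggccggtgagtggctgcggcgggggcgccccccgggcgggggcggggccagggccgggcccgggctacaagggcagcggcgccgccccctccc

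Dnmt3b had intensities of 463, 474 and 471 on the B6 arrays, 229, 213 and 211 on Ts1Cje, 211, 207 and 221 on B6 Trib1 and 198, 197 and 190.2 on Ts1Cje Trib1. All 3 B6 arrays stood far above the other 9, and the Ts1Cje arrays overlapped those of B6 Trib1. The log2 difference was -1.06 ± 0.04 between Ts1Cje and B6 (adjusted p = 5.08e-10) and -1.09 ± 0.04 between B6 Trib1 and B6 (adjusted p = 4.50e-11). Between Ts1Cje Trib1 and B6 Trib1 it was -0.12 ± 0.04 and did not pass (adjusted p = 0.0531). The interaction was 0.94 ± 0.06 (adjusted p = 3.35e-08), the most positive of the members. A dimmer Dnmt3b probe set gave -0.87 for Ts1Cje against B6 and -1.08 for B6 Trib1 against B6.

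Dnmt3l encodes a cofactor of the de novo enzymes that has no catalytic activity of its own. Its intensities were 53.4, 57.1 and 53.4 on the B6 arrays, 71.8, 72.3 and 71.7 on Ts1Cje, 40.01, 41.0 and 46.5 on B6 Trib1 and 35.6, 35.8 and 36.3 on Ts1Cje Trib1. The Ts1Cje arrays were the highest and the Ts1Cje Trib1 arrays the lowest, with no overlap between any of the 4 groups. It was higher in Ts1Cje than in B6, by 0.32 ± 0.04, and lower in Ts1Cje Trib1 than in B6 Trib1, by -0.17 ± 0.04. The interaction was -0.49 ± 0.06 (adjusted p = 2.80e-05). The gene was dim throughout.

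Dnmt1, the maintenance methyltransferase that copies methylation after replication, was the brightest of the 4. Its intensities were 1468, 1602 and 1520.0 on the B6 arrays, 1415, 1442 and 1472 on Ts1Cje, 1793, 1827 and 1794 on B6 Trib1 and 1774, 1786 and 1717 on Ts1Cje Trib1. Both lines lay above both cell groups on all arrays, while B6 and Ts1Cje overlapped. Dnmt1 was higher in B6 Trib1 than in B6 by 0.24 ± 0.04 and higher in Ts1Cje Trib1 than in Ts1Cje by 0.28 ± 0.04, and neither genotype difference passed. In these 2 comparisons 7 of the 13 proliferation markers were higher too, and 1 and 2 were lower.

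Dnmt3a, the other de novo enzyme and a common site of mutation in AML, had intensities of 323, 308 and 331 on the B6 arrays, 305, 309.9 and 291 on Ts1Cje, 359, 349 and 388 on B6 Trib1 and 325, 324 and 295 on Ts1Cje Trib1. Its level was lower in Ts1Cje Trib1 than in B6 Trib1 by -0.21 ± 0.05 (adjusted p = 0.0107) and higher in B6 Trib1 than in B6 by 0.18 ± 0.05. The gene has 5 kept probe sets and they disagreed. Between B6 Trib1 and B6 the other 4 gave 0.11, -0.18, -0.27 and 0.12, and between Ts1Cje Trib1 and B6 Trib1 they gave -0.40, -0.23, -0.41 and -0.10. The fall in Ts1Cje Trib1 thus had the same sign on every probe set, and the rise in B6 Trib1 did not. Averaging the probe sets gave -0.01 for B6 Trib1 against B6.

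The 2 Tet genes that passed the filter were not called between genotypes, but quantile normalization called 1 lower between the lines and centring over the kept probe sets 1 higher in Ts1Cje than in B6. Tet2, an oxidase of methylcytosine often mutated in myeloid disease, had intensities of 414, 458 and 463 on the B6 arrays, 482, 454 and 463 on Ts1Cje, 335, 357 and 347 on B6 Trib1 and 322, 318 and 311 on Ts1Cje Trib1. The arrays of both lines lay below those of both cell groups. Tet2 fell by 0.35 in B6 Trib1 against B6 (adjusted p = 2.20e-05) and by 0.54 in Ts1Cje Trib1 against Ts1Cje (adjusted p = 1.96e-07), and its other probe set gave -0.32 and -0.42. That probe set was also called lower in Ts1Cje Trib1 than in B6 Trib1 (-0.17, adjusted p = 0.00981), where the probe set used here gave -0.12 ± 0.05 (adjusted p = 0.0781). The interaction was -0.19 ± 0.07 (adjusted p = 0.0286) and was lost in 5 of 24 alternatives. Tet3 had dim and scattered intensities of 50.7, 47.8 and 48.0 on the B6 arrays, 43.5, 59.4 and 48.5 on Ts1Cje, 39.0, 44.9 and 46.3 on B6 Trib1 and 40.9, 39.9 and 46.9 on Ts1Cje Trib1, and no comparison of it passed.

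All 5 PRC2 genes were called lower in Ts1Cje than in B6, against 29.3% of all genes, and 4 under each of the 3 other scalings. PRC2 places a repressive methyl mark on histone H3 through its catalytic subunit Ezh2 or Ezh1, with Eed and Suz12 as core subunits and Jarid2 as a recruiting cofactor. Ezh2 showed the second largest fall of the 62. The 250 bases before its start, at chr6:47595031-47595280 on the minus strand of GRCm38.p6 (RefSeq), hold 23 CG pairs and 3 CCAAT boxes, in capitals, that begin 90, 64 and 11 bases before the start; a match on the other strand reads ATTGG.
Ezh2: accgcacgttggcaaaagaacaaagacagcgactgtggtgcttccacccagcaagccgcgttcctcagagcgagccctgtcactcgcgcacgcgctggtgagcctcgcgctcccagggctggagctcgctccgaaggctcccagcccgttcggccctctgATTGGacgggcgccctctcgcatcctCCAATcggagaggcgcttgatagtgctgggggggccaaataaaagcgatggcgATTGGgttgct

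Ezh2 had intensities of 1233, 1259 and 1274 on the B6 arrays, 831, 755 and 819 on Ts1Cje, 1015, 1027 and 1009.6 on B6 Trib1 and 967, 975 and 980.3 on Ts1Cje Trib1. The B6 arrays were the highest, the Ts1Cje arrays the lowest and the lines lay between, without overlap between any of the 4 groups. Ts1Cje differed from B6 by -0.64 ± 0.04 (adjusted p = 3.67e-08). The lines came closer together from both sides: B6 Trib1 was lower than B6 by -0.30 ± 0.04 and Ts1Cje Trib1 higher than Ts1Cje by 0.28 ± 0.04. Between the lines the difference was -0.06 ± 0.04 and did not pass (adjusted p = 0.322), and the interaction was 0.58 ± 0.06 (adjusted p = 2.67e-06). Ezh2 has 1 probe set.

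Eed, which binds the finished mark, had intensities of 829.7, 819 and 842 on the B6 arrays, 743, 622 and 659 on Ts1Cje, 805, 815 and 814 on B6 Trib1 and 828, 789 and 789 on Ts1Cje Trib1. The Ts1Cje arrays lay below all others, with array 1 nearest to them. Suz12, which holds the complex together, had intensities of 885, 877 and 895 on the B6 arrays, 747, 701 and 759 on Ts1Cje, 913, 820.0 and 868 on B6 Trib1 and 847, 842 and 777 on Ts1Cje Trib1. Here too the 3 Ts1Cje arrays were the lowest of the 12. Ts1Cje against B6 gave -0.30 ± 0.05 for Eed and -0.26 ± 0.05 for Suz12, and Ts1Cje Trib1 against Ts1Cje gave 0.25 ± 0.05 and 0.16 ± 0.05. Neither gene passed between the lines or between B6 Trib1 and B6 on these probe sets. Suz12 has 6 kept probe sets, and 3 of the other 5 were called lower in B6 Trib1 than in B6, by -0.29, -0.40 and -0.20. The Suz12 interaction of 0.19 ± 0.07 was lost in 10 of 24 alternatives.

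Jarid2 was low in both Ts1Cje groups. Its intensities were 510.1, 519.7 and 493 on the B6 arrays, 424, 429 and 403 on Ts1Cje, 449, 464 and 447 on B6 Trib1 and 395, 385 and 381 on Ts1Cje Trib1. It was lower in Ts1Cje than in B6 by -0.27 ± 0.04 (adjusted p = 6.68e-05) and lower in Ts1Cje Trib1 than in B6 Trib1 by -0.22 ± 0.04 (adjusted p = 0.000882), so that both Ts1Cje groups lay below their B6 counterparts without overlap. The interaction was 0.05 ± 0.05 and did not pass (adjusted p = 0.474). Ezh1, the catalytic subunit of resting cells, had intensities of 175, 181 and 169.8 on the B6 arrays, 169, 137 and 160.5 on Ts1Cje, 179, 175 and 176 on B6 Trib1 and 196, 191 and 171 on Ts1Cje Trib1. The Ts1Cje arrays were again the lowest, but its call against B6 was marginal (difference -0.16 ± 0.06, adjusted p = 0.0484), it was lost in 20 of 23 alternatives, and its other kept probe set gave 0.02.

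**Figure D3:**
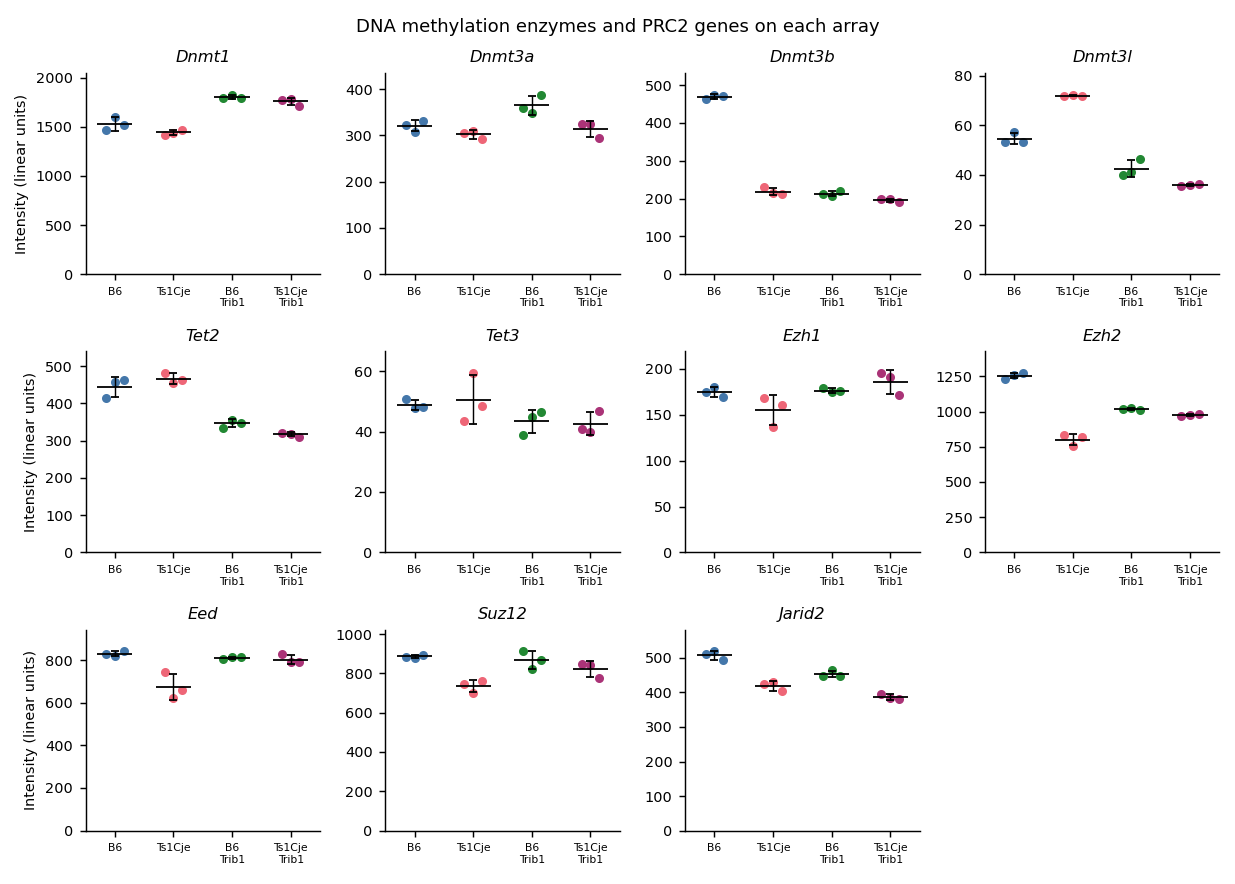
Intensity (linear units, axis from 0) of the 4 Dnmt, 2 Tet and 5 PRC2 genes on each array, by group; points are arrays, the horizontal line is the mean of 3 arrays and the bar is 1 SD. Dnmt3b is high in B6 alone, Dnmt3l is highest in Ts1Cje, and Ezh2, Eed and Suz12 are lowest in Ts1Cje.

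Of 7 Kmt genes 4 were called lower in Ts1Cje against B6, and of 6 Setd genes 5, against 29.3% of all genes. With centring over the kept probe sets the Kmt counts became 2 lower and 2 higher, and the Setd counts 4 lower and 1 higher. The 4 Kmt genes were the Kmt2 enzymes, which methylate histone H3 at active promoters and enhancers (Kmt2b, Kmt2c and Kmt2d), and their relative Kmt2e. Kmt2c went from 479 ± 2.38 in B6 to 377 ± 27.5 in Ts1Cje and stood at 479.9 ± 19.5 in Ts1Cje Trib1 (means with SD, n = 3). Its difference was -0.34 ± 0.05 without Trib1, 0.34 ± 0.05 between Ts1Cje Trib1 and Ts1Cje, and its interaction 0.41 ± 0.08 (adjusted p = 0.000688). Its 3 other kept probe sets gave -0.10, 0.10 and 0.01 between Ts1Cje Trib1 and Ts1Cje and were not called, and averaging the probe sets lowered that difference to 0.09 and ended the call. Between B6 Trib1 and B6 those 3 were called lower, by -0.61, -0.22 and -0.19. The probe set used here gave -0.07 there and was not called. Kmt2d stood at similar levels in Ts1Cje (553 ± 29.8), B6 Trib1 (548 ± 19.6) and Ts1Cje Trib1 (546 ± 22.2) against 676 ± 28.8 in B6. Kmt2b and Kmt2e differed by -0.16 and -0.20 between Ts1Cje and B6.

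The 3 Kmt5 enzymes, which methylate histone H4, were not called between genotypes and differed among themselves in the lines. With centring over the kept probe sets Kmt5a and Kmt5c were called higher in Ts1Cje than in B6 (0.16 and 0.15), and with median centring Kmt5b was called higher in Ts1Cje Trib1 than in B6 Trib1 (0.17). Kmt5a, which adds the methyl group at the start of that series, had intensities of 1135, 1113 and 1068 on the B6 arrays, 1214, 1154 and 1149 on Ts1Cje, 804, 878 and 857 on B6 Trib1 and 873, 864 and 935 on Ts1Cje Trib1. Both lines lay below both cell groups on all arrays, by -0.38 ± 0.05 in the B6 background and -0.39 ± 0.05 in the Ts1Cje background, and it was called in neither genotype comparison. Kmt5c, which adds further methyl groups, had intensities of 222, 199 and 213 on the B6 arrays, 216, 213 and 238 on Ts1Cje, 251, 257 and 256 on B6 Trib1 and 240.0, 242 and 230.3 on Ts1Cje Trib1. It was called higher in B6 Trib1 than in B6 by 0.25 ± 0.05, and its remaining differences did not pass. Kmt5b, which acts at the same step, had intensities of 247, 217 and 222 on the B6 arrays, 235, 232 and 233 on Ts1Cje, 233, 227 and 239 on B6 Trib1 and 246, 259 and 278 on Ts1Cje Trib1. It was called higher in Ts1Cje Trib1 than in Ts1Cje by 0.15 ± 0.05 (adjusted p = 0.0214), and averaging its probe sets ended that call. Of its 3 other kept probe sets 1 was called lower in Ts1Cje than in B6 (-0.23).

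Setd7 was the member with the largest rise in B6 Trib1 cells. It encodes a methyltransferase of histone H3 and of several other proteins. Its intensities were 617, 594 and 629 on the B6 arrays, 484, 463 and 474 on Ts1Cje, 1034, 996 and 1022 on B6 Trib1 and 1202, 1146 and 1158 on Ts1Cje Trib1. All 6 arrays of the lines lay above all 6 arrays of the cells, and the order of the genotypes turned over between them: Ts1Cje was lower than B6 by -0.36 ± 0.04 and Ts1Cje Trib1 higher than B6 Trib1 by 0.20 ± 0.04, with no overlap. The difference between lines and cells was 0.72 ± 0.04 in the B6 background (adjusted p = 1.47e-09) and 1.28 ± 0.04 in the Ts1Cje background (adjusted p = 1.88e-12). The interaction was 0.56 ± 0.05 (adjusted p = 2.12e-06). Its other probe set was dim, with group means from 24.8 to 28.9, and gave 0.14 and 0.08 for lines against cells; averaging both ended the call between the lines.

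Setd6, a methyltransferase of the NF-kB subunit RelA, turned over in the same way. Its intensities were 178, 161 and 164 on the B6 arrays, 134, 143 and 124 on Ts1Cje, 121, 117 and 132 on B6 Trib1 and 147, 139 and 151 on Ts1Cje Trib1. The B6 arrays were the highest; Ts1Cje was lower than B6 by -0.30 ± 0.06, and Ts1Cje Trib1 was higher than B6 Trib1 by 0.21 ± 0.06 (adjusted p = 0.0183). The latter call was lost without array 1 or 2 of B6 Trib1 or array 1 or 3 of Ts1Cje Trib1. Setd2, which methylates histone H3 along transcribed genes, had intensities of 491, 499 and 491 on the B6 arrays, 397, 393 and 381 on Ts1Cje, 438, 477 and 445 on B6 Trib1 and 397, 420.1 and 402 on Ts1Cje Trib1. It was lower in the Ts1Cje background both without Trib1, by -0.33 ± 0.04, and with it, by -0.15 ± 0.04 (adjusted p = 0.0158); the latter was lost with the 2 lines alone in the fit, without array 2 of B6 Trib1 or without array 1 of Ts1Cje Trib1. Setd1b and Setd5 were lower in Ts1Cje by -0.24 and -0.19. Setd3, known as an actin histidine methyltransferase, was not called in any comparison.

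Of 12 Kdm genes that passed the filter, 6 were called lower and 1 higher in Ts1Cje against B6 (29.3% and 23.3% of all genes). With centring over the kept probe sets 4 were lower and 3 higher. The 1 called higher without rescaling, Kdm7a, showed the largest change of all members. Kdm7a encodes a demethylase of histone H3 lysines that carries a plant homeodomain. The 250 bases before its start, at chr6:39206774-39207023 on the minus strand of GRCm38.p6 (RefSeq), hold 56 CG pairs, the most of any member promoter, and no match to the motifs searched.
Kdm7a: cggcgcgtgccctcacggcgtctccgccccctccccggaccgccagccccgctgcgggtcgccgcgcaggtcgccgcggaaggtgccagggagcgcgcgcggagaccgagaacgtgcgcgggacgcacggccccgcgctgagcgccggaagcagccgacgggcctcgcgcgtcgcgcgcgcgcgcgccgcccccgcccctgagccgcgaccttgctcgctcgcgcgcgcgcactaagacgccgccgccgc

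Kdm7a had intensities of 528, 501 and 548 on the B6 arrays, 646, 622 and 646 on Ts1Cje, 242, 227 and 251 on B6 Trib1 and 132, 126 and 141 on Ts1Cje Trib1. The 4 groups did not overlap: Ts1Cje was the highest, then B6, then B6 Trib1, and Ts1Cje Trib1 was the lowest. Ts1Cje was higher than B6 by 0.27 ± 0.05 (adjusted p = 0.000516) and Ts1Cje Trib1 lower than B6 Trib1 by -0.79 ± 0.05 (adjusted p = 9.57e-08). The fall from cells to lines was -1.08 ± 0.05 in the B6 background (adjusted p = 4.09e-10) and -2.14 ± 0.05 in the Ts1Cje background (adjusted p = 1.88e-13). The interaction was -1.06 ± 0.07 (adjusted p = 8.23e-08), the most negative of the members. Another bright probe set gave 0.24, -0.72, -1.09 and -2.05 for the same 4 comparisons, and a dim one 0.36, -0.18, -0.54 and -1.08. Of the 8 myeloid markers, 8 were higher in Ts1Cje than in B6, 7 were lower in Ts1Cje Trib1 than in B6 Trib1, 6 were lower and 2 higher in B6 Trib1 than in B6, and 8 were lower in Ts1Cje Trib1 than in Ts1Cje. Their part in the Kdm7a result was not tested.

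Of the 12 Kdm genes, 5 were called higher and 4 lower in B6 Trib1 than in B6, against 34.1% and 31.1% of all genes. In Ts1Cje Trib1 against Ts1Cje 6 were called higher and 1 lower, against 34.1% and 26.8%. Kdm5b, which removes methyl groups from histone H3 at promoters, had intensities of 94.2, 94.4 and 88.2 on the B6 arrays, 89.6, 101 and 90.2 on Ts1Cje, 144, 149.7 and 149 on B6 Trib1 and 171, 169.6 and 201 on Ts1Cje Trib1. The B6 and Ts1Cje arrays overlapped, the B6 Trib1 arrays lay above them and the Ts1Cje Trib1 arrays highest. The rise was 0.60 ± 0.06 in the B6 background and 0.85 ± 0.06 in the Ts1Cje background, and Ts1Cje Trib1 exceeded B6 Trib1 by 0.26 ± 0.06 (adjusted p = 0.00693). Its other probe set gave 0.53, 0.69 and 0.18, the last of which did not pass.

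Kdm3a, a demethylase of a repressive mark on histone H3 that is induced by hypoxia, had intensities of 426, 425 and 443 on the B6 arrays, 418, 411 and 370.0 on Ts1Cje, 556, 572 and 589 on B6 Trib1 and 640.0, 654 and 637 on Ts1Cje Trib1. The lines lay above the cells, by 0.40 ± 0.05 and 0.67 ± 0.05, and Ts1Cje Trib1 lay above B6 Trib1 by 0.17 ± 0.05 (adjusted p = 0.0199). That last call was lost without array 1 or 2 of B6 Trib1 or array 2 of Ts1Cje Trib1. Kdm1a, the flavin-dependent demethylase also known as LSD1, averaged 953 ± 15.4 on B6 arrays, 756 ± 57.1 on Ts1Cje, 1079 ± 19.96 on B6 Trib1 and 1168 ± 27.8 on Ts1Cje Trib1 (SD, n = 3). It was lower in Ts1Cje by -0.33 ± 0.05, higher in Ts1Cje Trib1 than in Ts1Cje by 0.62 ± 0.05, and its interaction was 0.44 ± 0.07 (adjusted p = 0.000158). Kdm5a had the same signs, with -0.31, 0.55 and 0.39.

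Kdm1b, the other flavin-dependent demethylase, was among the 4 Kdm genes called lower in B6 Trib1 than in B6. Its intensities were 277, 303 and 315 on the B6 arrays, 286, 233 and 233 on Ts1Cje, 205, 169.6 and 209 on B6 Trib1 and 221, 219.8 and 209 on Ts1Cje Trib1. Ts1Cje array 1 lay within the range of B6, and both lines lay below both cell groups. It was lower in B6 Trib1 than in B6 by -0.58 ± 0.08 (adjusted p = 5.03e-05). Of the remaining Kdm genes, Kdm2b, which tethers a Polycomb complex to CpG islands, was lower in Ts1Cje by -0.34, Kdm8 by -0.25 and Kdm4c by -0.18, the last of which was lost in 16 of 24 alternatives. Kdm2b and Kdm8 were also called lower in B6 Trib1 than in B6, by -0.18 and -0.29. Kdm2a and Kdm4d had group means between 20.6 and 25.7, near the 40th percentile of 22.0 to 23.5, and Kdm4b between 43.3 and 46.7.

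Of 6 Kat genes 4 were called lower in Ts1Cje, against 29.3% of all genes. With centring over the kept probe sets 2 were lower and 1 higher. Kat2a, also known as GCN5, the acetyltransferase of the SAGA and ATAC complexes, had intensities of 195, 180.5 and 193 on the B6 arrays, 133, 122 and 127 on Ts1Cje, 162, 163 and 157 on B6 Trib1 and 199.8, 194 and 142 on Ts1Cje Trib1. The Ts1Cje arrays were the lowest of all, and array 3 of Ts1Cje Trib1 stood below its group. Ts1Cje differed from B6 by -0.52 ± 0.09 (adjusted p = 0.000349), and the interaction was 0.65 ± 0.13 (adjusted p = 0.00108). These values came from a probe set marked as shared between transcripts; the other Kat2a probe set gave -0.04 and 0.04 and was not called in either. The Kat2a differences are therefore uncertain.

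Kat14, a subunit of the ATAC complex, had intensities of 317, 286 and 295 on the B6 arrays, 276, 252 and 278 on Ts1Cje, 184, 176 and 173 on B6 Trib1 and 177, 171 and 172 on Ts1Cje Trib1. The lines lay far below the cells and overlapped each other. The fall was -0.71 ± 0.05 in the B6 background (adjusted p = 2.79e-08) and -0.59 ± 0.05 in the Ts1Cje background (adjusted p = 1.30e-07). Kat6a (MOZ), Kat7 (HBO1) and Kat14 were lower in Ts1Cje than in B6 by -0.25, -0.16 and -0.15. Kat2b and Kat8 were not called between genotypes.

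Most deacetylases were low in Ts1Cje cells. Of 7 Hdac genes that passed the filter, 5 were called lower in Ts1Cje than in B6 (29.3% of all genes). Of the 7, 6 were called higher in Ts1Cje Trib1 than in Ts1Cje (34.1% of all genes), a comparison that uses the same Ts1Cje arrays. With centring over the kept probe sets these counts were 4 and 6. Between the lines the smallest adjusted p was that of Hdac5 (difference -0.23 ± 0.08, adjusted p = 0.0566). Hdac2, a core enzyme of the NuRD, Sin3 and CoREST corepressors, had intensities of 1168, 1226 and 1166 on the B6 arrays, 952, 799.6 and 815 on Ts1Cje, 989, 919 and 1086 on B6 Trib1 and 1071, 1079 and 1017 on Ts1Cje Trib1. The B6 arrays were the highest, and array 1 of Ts1Cje overlapped the B6 Trib1 arrays. The difference between Ts1Cje and B6 was -0.47 ± 0.07 (adjusted p = 8.72e-05) and the interaction 0.55 ± 0.10 (adjusted p = 0.000461). Its partner Hdac1 differed by -0.18, from 1371 ± 29.5 to 1212 ± 38.0. Hdac6, a tubulin deacetylase, Hdac7, a class IIa enzyme, and Hdac10, a polyamine deacetylase, differed by -0.28, -0.24 and -0.38. Hdac5 was called higher in both lines, but in Ts1Cje Trib1 against Ts1Cje the groups overlapped and the call was lost in 15 of 24 alternatives.

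Among the NAD-dependent Sirt genes the largest changes were in members that act in mitochondria. Sirt3, the main mitochondrial deacetylase, had intensities of 252, 232 and 244 on the B6 arrays, 170.1, 154 and 160.0 on Ts1Cje, 373, 392 and 396 on B6 Trib1 and 452, 472 and 452 on Ts1Cje Trib1. The 4 groups did not overlap, with Ts1Cje the lowest and Ts1Cje Trib1 the highest. Ts1Cje was lower than B6 by -0.55 ± 0.05 (adjusted p = 6.05e-07) and Ts1Cje Trib1 higher than B6 Trib1 by 0.24 ± 0.05 (adjusted p = 0.00207). Lines exceeded cells by 0.64 ± 0.05 for B6 and by 1.43 ± 0.05 for Ts1Cje (adjusted p = 4.87e-12), the latter being the largest rise of any member. The interaction was 0.79 ± 0.06 (adjusted p = 6.28e-07).

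Sirt5, a mitochondrial enzyme that removes succinyl and malonyl groups, had intensities of 136, 120.0 and 148 on the B6 arrays, 110.3, 92.8 and 89.8 on Ts1Cje, 155, 144 and 186 on B6 Trib1 and 182, 186 and 213 on Ts1Cje Trib1. The Ts1Cje arrays were the lowest, and B6 overlapped B6 Trib1. Ts1Cje was lower than B6 by -0.41 ± 0.10, Ts1Cje Trib1 was higher than Ts1Cje by 0.89 ± 0.10 (adjusted p = 2.29e-06), and the interaction was 0.65 ± 0.14 (adjusted p = 0.00171). Its other kept probe set gave -0.16, 0.54 and 0.26 for the same comparisons, and only the 0.54 was called. Sirt4, the remaining mitochondrial member measured, had group means between 53.8 and 57.3 and was not called in any comparison.

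Sirt1, the nuclear deacetylase, had intensities of 450.1, 453 and 451 on the B6 arrays, 414, 328 and 300.0 on Ts1Cje, 322, 291 and 378 on B6 Trib1 and 357, 358 and 350.2 on Ts1Cje Trib1. The B6 arrays were above all others and nearly equal to each other, while Ts1Cje and B6 Trib1 scattered widely. It was lower in Ts1Cje by -0.38 ± 0.10 (adjusted p = 0.00691) and in B6 Trib1 by -0.44 ± 0.10 (adjusted p = 0.00182). Sirt7, which acts in the nucleolus, had intensities of 808, 838 and 801 on the B6 arrays, 881, 856 and 883 on Ts1Cje, 841, 869 and 881 on B6 Trib1 and 858, 850.3 and 846 on Ts1Cje Trib1. Its rise in Ts1Cje was 0.10 ± 0.03 (adjusted p = 0.0332) and was lost in 7 of 24 alternatives.

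Of 8 Prmt genes, 5 (Prmt1, Prmt3, Prmt5, Prmt6 and Prmt7) were called lower in Ts1Cje than in B6, against 29.3% of all genes. These 5 were called higher in Ts1Cje Trib1 than in Ts1Cje (34.1% of all genes), a comparison that uses the same Ts1Cje arrays. Prmt1 makes most of the asymmetric dimethylarginine in cells and Prmt5 most of the symmetric form. Prmt1 differed by -0.33 ± 0.04, from 1385 ± 34.3 to 1101 ± 37.8, and Prmt5 by -0.28 ± 0.06, from 664 ± 9.23 to 543 ± 15.3 (mean with SD, n = 3). Prmt3, which methylates a ribosomal protein, is shown with the 250 bases before its start, at chr7:49778108-49778357 on the plus strand of GRCm38.p6 (RefSeq), because it was the only member promoter to hold the C/EBP palindrome TTGCGCAA. The capitals mark a CCAAT box at 130 bases (read as ATTGG), the palindrome at 59 bases and an E-box, CACGTG, at 13 bases before the start.
Prmt3: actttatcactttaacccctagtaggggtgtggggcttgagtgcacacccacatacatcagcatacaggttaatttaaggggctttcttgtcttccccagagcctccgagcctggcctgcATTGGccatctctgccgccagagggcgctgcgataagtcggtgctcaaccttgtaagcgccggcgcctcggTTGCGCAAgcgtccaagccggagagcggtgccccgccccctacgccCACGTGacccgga

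Prmt3 had intensities of 508, 509 and 503 on the B6 arrays, 403, 394 and 387 on Ts1Cje, 496, 492 and 502 on B6 Trib1 and 533, 533 and 536 on Ts1Cje Trib1. Replicates were tight, Ts1Cje lay far below the other groups and Ts1Cje Trib1 was the highest, without overlap between any of the 4 groups. Ts1Cje was lower than B6 by -0.35 ± 0.03 (adjusted p = 1.39e-06), and the interaction was 0.45 ± 0.04 (adjusted p = 3.69e-06). Its other kept probe sets were dimmer and gave -0.47, -0.03, -0.14 and -0.09 for Ts1Cje against B6. For the interaction they gave 0.68, 0.03, 0.18 and 0.10. Only the first of them was called in these comparisons, and none was called between the lines. The rise of Ts1Cje Trib1 over B6 Trib1 was 0.10 ± 0.03 (adjusted p = 0.0344) and was lost in 12 of 24 alternatives. Prmt6 and Prmt7 differed by -0.25 and -0.22 between Ts1Cje and B6.

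Prmt2 and Prmt9 went the other way. Prmt9, which acts on a splicing factor, had intensities of 248, 244 and 251 on the B6 arrays, 299, 269.5 and 282 on Ts1Cje, 258, 267 and 270.3 on B6 Trib1 and 263, 257 and 253 on Ts1Cje Trib1. The Ts1Cje arrays lay above those of B6, and the lowest of them within the range of B6 Trib1. It was higher in Ts1Cje than in B6 by 0.18 ± 0.04 (adjusted p = 0.00239), and its interaction was -0.22 ± 0.06. Prmt2, a weak enzyme that also acts as a coactivator, had intensities of 193, 201 and 198 on the B6 arrays, 209, 216 and 219 on Ts1Cje, 222, 209.6 and 202 on B6 Trib1 and 222, 230.4 and 230.1 on Ts1Cje Trib1. The Ts1Cje arrays lay above those of B6 and overlapped those of B6 Trib1. Its difference of 0.12 ± 0.04 between Ts1Cje and B6 (adjusted p = 0.027) was lost in 5 of 24 alternatives. Prmt8, known from the nervous system, had group means between 23.2 and 25.7, close to the filter.

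**Figure D4:**
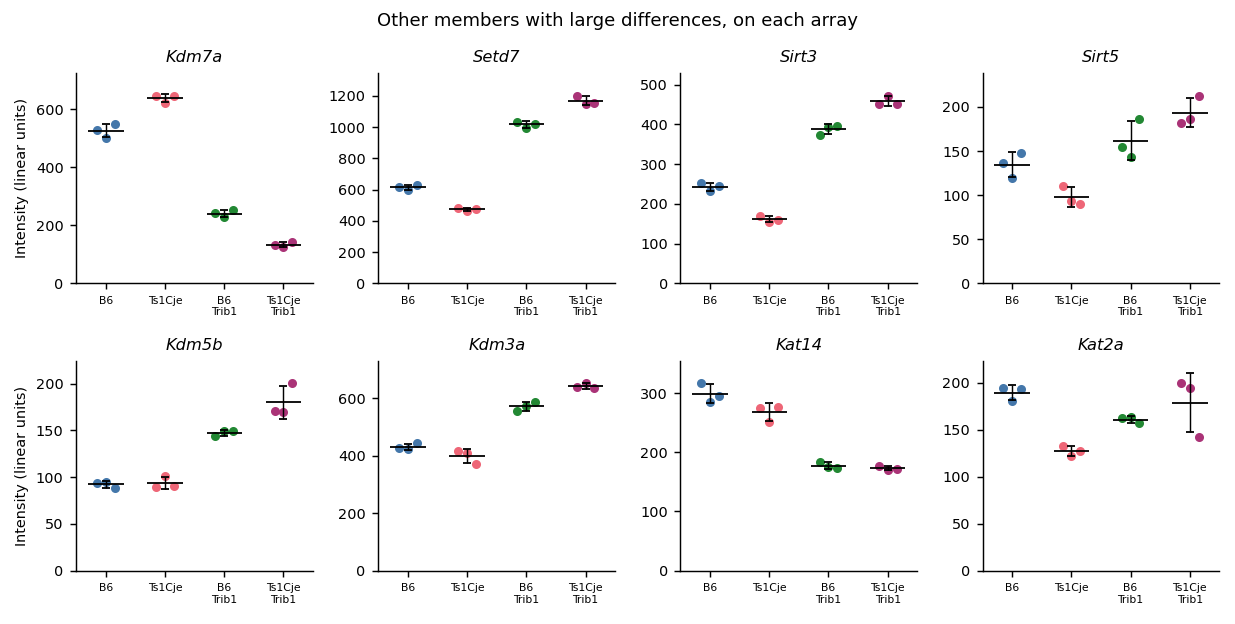
Intensity (linear units, axis from 0) of 8 further enzymes on each array, by group; points are arrays, the horizontal line is the mean of 3 arrays and the bar is 1 SD. Kdm7a and Kat14 are low in both lines, Setd7, Sirt3, Kdm5b and Kdm3a are high in both, and Kat2a and Sirt5 are lowest in Ts1Cje.

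The lines were next compared with the cells of their own background. In the B6 background 13 members (21.0%) were called higher in B6 Trib1 than in B6, against 34.1% of all genes, and 23 (37.1%) were called lower, against 31.1%. In the Ts1Cje background 31 (50%) were called higher in Ts1Cje Trib1 than in Ts1Cje, against 34.1%, and 9 (14.5%) were called lower, against 26.8%. Median differences were -0.03 and 0.11. At a mean intensity of 100 or more, 20 of 52 members and 2909 of 7628 genes were lower in B6 Trib1 than in B6. There 11 members and 2338 genes were higher. In Ts1Cje Trib1 against Ts1Cje, 29 of these members and 3289 of these genes were higher, and 8 and 2431 were lower. The B6 result turned with the scaling: with centring over the kept probe sets, which moved the median of all genes in that comparison from 0.03 to 0.13, 22 members were higher and 14 lower, and with quantile normalization 18 and 18. The Ts1Cje result gave 30 and 8, and 30 and 10, under the same alternatives. Changes of 1.5-fold or more passed for 6 members in the B6 background (Setd7, Kdm5b and Sirt3 higher, and Dnmt3b, Kdm7a and Kat14 lower), as did 14.7% of all genes. In the Ts1Cje background they passed for 9 (Setd7, Kdm1a, Kdm3a, Kdm5b, Sirt3 and Sirt5 higher, and Dnmt3l, Kdm7a and Kat14 lower), against 20% of all genes.

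Across both backgrounds 9 members (14.5%) were called higher in the lines, against 19.4% of all genes (Dnmt1, Setd7, Kdm1a, Kdm3a, Kdm5a, Kdm5b, Hdac5, Sirt3 and Sirt5) and 7 (11.3%) were called lower, against 19.7% (Dnmt3b, Dnmt3l, Tet2, Jarid2, Kmt5a, Kdm7a and Kat14). Another 6 (9.68%), Ezh2, Kdm2b, Kat2a, Kat6a, Hdac2 and Hdac10, were called lower in B6 Trib1 than in B6 and higher in Ts1Cje Trib1 than in Ts1Cje, against 3.24% of all genes. Several of these calls were weak. In the B6 background the call was lost in 16 of 24 alternatives for Kat2a (range -0.25 to 0.07), 11 for Sirt5, 8 for Kdm5a and 7 for Hdac10. In the Ts1Cje background it was lost in 17 of 24 for Kat6a and for Kdm2b, 15 for Hdac5 and 6 for Jarid2. Comparisons that share a group share its 3 arrays, so that a low Ts1Cje level enters Ts1Cje against B6, Ts1Cje Trib1 against Ts1Cje and the interaction alike. The 7 B cell markers summed to 4298 or more on every B6 array and to 202 or less on every array of the lines, and 5 of 5 mast cell and basophil markers were higher in each line than in its cells. Their part in these results was not tested.

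**Figure D5:**
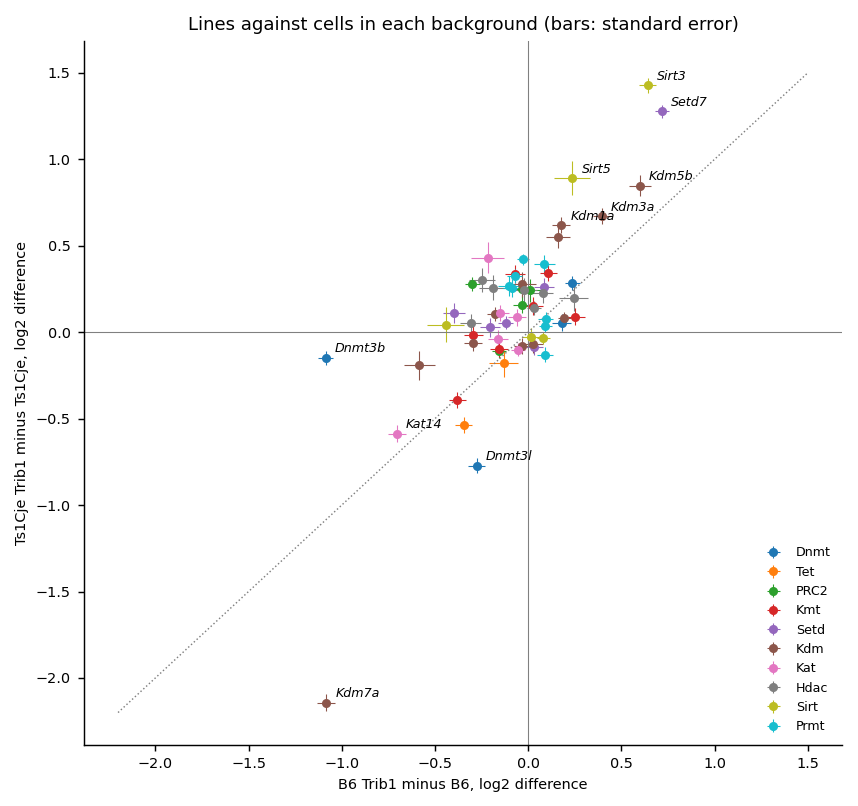
Log2 difference of intensity + 15 between Ts1Cje Trib1 and Ts1Cje (vertical) against that between B6 Trib1 and B6 (horizontal) for the 62 enzymes, coloured by family; bars are standard errors, the dotted line marks equal differences and genes past a 1.5-fold step on either axis are named. Setd7, Sirt3 and Kdm5b lie high on both axes, Kdm7a and Kat14 low on both, and Dnmt3b is low on the horizontal axis with -0.15 on the vertical one.

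Not all probe sets of a called member showed the call. Between Ts1Cje and B6 the called members had 35 other kept probe sets, of which 18 gave the same call, 17 gave none and 0 gave the opposite one. Between B6 Trib1 and B6, 12 of 21 gave the same call and 4, in Dnmt3a, Kdm5a and Setd6, the opposite. Between Ts1Cje Trib1 and Ts1Cje, 20 of 40 gave the same call and 1, in Prmt9, the opposite. Between the lines 7 of 16 gave the same call and 9 gave none. For the interaction 13 of 31 gave the same call and 18 gave none, with 0 opposite in both. The groups of a called member did not overlap in 41 of 43 cases for Ts1Cje against B6, against 95.3% of all called genes. The counts were 11 of 11 between the lines (98.4% of all called genes), 34 of 36 in the B6 background (97.4%) and 38 of 40 in the Ts1Cje background (97%), so that called members were close to called genes in general.

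The promoters of the members were described from RefSeq sequences of GRCm38.p6. For 53 of the 62 there were 77 start sites among 32851 in the table, with 250 bases before each. Member promoters held a median of 17 CG pairs, against 6 for all promoters. The motifs searched on both strands were an E2F-type site (TTTNNCGC), a C/EBP-type site (TTGCNNAA, which includes the palindrome TTGCGCAA), an E-box (CACGTG) and a CCAAT box (CCAAT). The E2F-type letters stood in 7.79% of member promoters and 4.28% of all, the C/EBP-type letters in 5.19% and 9.56%, the E-box in 7.79% and 6.02%, and the CCAAT box in 40.3% and 33.9%. A match is a stretch of letters and not a measured binding site.

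Genes that work with these enzymes but are not among them were described in the same way. Of 100 measured genes in 9 lists of partners and related enzymes, 60 were lower and 2 higher in Ts1Cje than in B6 (median -0.18), against 29.3% and 23.3% of all genes. Between the lines 5 were lower and 8 higher, against 9.63% and 11.9%. The interaction was positive for 59 and negative for 2 (median 0.22), against 28.4% and 20.2%. In Ts1Cje Trib1 against Ts1Cje 54 were higher and 20 lower (34.1% and 26.8% of all genes), and in B6 Trib1 against B6 23 were higher and 44 lower (34.1% and 31.1%). With centring over the kept probe sets these counts became 46 lower and 8 higher in Ts1Cje against B6, 38 positive and 7 negative interactions, and 34 higher and 23 lower in B6 Trib1 against B6, so that the balance of the last turned. With quantile normalization they were 54 and 9, 44 and 6, and 27 and 34. The genes named from each list are those of lowest adjusted p, not of largest difference. Of 6 PRC2 accessory genes 4 were lower in Ts1Cje, among them Aebp2 (-0.29) and the histone chaperone Rbbp7 (-0.22). Of 14 genes of the sister complex PRC1 9 were lower, among them Phc1 (-0.65) and the chromobox gene Cbx6 (-0.79).

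Cbx6 went from 232 ± 17.8 in B6 to 128 ± 9.93 in Ts1Cje and stood at 276 ± 9.87 and 299 ± 18.2 in the B6 Trib1 and Ts1Cje Trib1 lines (SD, n = 3). Of 11 partners of the Kmt2 enzymes 8 were lower in Ts1Cje, against 29.3% of all genes here and for the lists below. Psip1, a chromatin tether of these complexes, stood at -0.56 and Dpy30 at -0.24. Of 9 DNA methylation partners 6 were lower, with Uhrf1, which guides Dnmt1 to newly copied DNA, at -0.48 and the remodeller Hells at -0.53. Of 19 corepressor genes 7 were lower and 1 higher, against 29.3% and 23.3% of all genes, and their median was -0.09. Chd3 stood at -0.55 and Mta3 at -0.38. Of 16 acetyltransferases and partners 10 were lower, among them Jade2 (-0.62), of 14 other histone methyltransferases 8, among them Nsd1 (-0.44) and Smyd2 (-0.39), of 9 other demethylases 6 and of 2 bromodomain readers both. The acetyltransferase gene Crebbp showed the largest difference of these genes in the lines, -1.43 in B6 Trib1 against B6, from 587 to 206.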

How the data were processed

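Each deposited value was the linear intensity of 1 probe set on 1 array. The submitters' processing notes name MAS5 for these intensities. MAS5 needs mismatch probes and this array type has none, so how the authors summarised and scaled the intensities was not settled. The genome build is not given in the sources used here. Medians of the arrays ran from 30.5 to 32.0, and the values were tested without rescaling. The platform annotation gave 1 gene symbol to 28898 of 45141 probe sets, several to 551 and none to 15588, beside 104 controls. All 66 member symbols were current in the RefSeq table of GRCm38.p6.

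A probe set was kept when it exceeded its array's 40th percentile (22.0 to 23.5) on at least 3 arrays. This left 20066 probe sets and 12560 genes, 4845 of them with more than 1 probe set. Intensities were transformed as log2(intensity + 15), and a gene was represented by its kept probe set of highest mean. Group means were estimated from the 12 arrays together by limma (version 3.58.1, under R 4.3.3). Tests were two-sided, with Benjamini-Hochberg adjustment over the 12560 genes of a comparison. The number of arrays limits the precision.

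The members, the lists and the rules for naming genes were chosen with earlier results of these data known. Any member could be named in its family's account. Values on every array were given for the Dnmt, Tet and PRC2 genes, for the 5 largest rises and falls of each pairwise comparison among called members without overlap, and for the 4 largest interactions in each direction. Of each partner list at most 2 genes, those of lowest adjusted p, were named per comparison. The alternatives concerned scaling (quantile normalization or median centring), the offset (1, or a floor of 15 instead), the filter (absent, or at the 60th percentile), the probe sets of a gene (averaged, or without shared ones), the variance model (trend with robust moderation), the fit (contrasted groups alone, or replicate number as a block) and the arrays (each left out in turn). Median centring over the kept probe sets was added after the data were seen.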

Additional observations from a re-analysis of the deposited data

Results flagged for a closer look

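For 37 of the 62 members the difference between Ts1Cje and B6 cells was not the same as that between the Ts1Cje Trib1 and B6 Trib1 lines, by the interaction test of limma at an adjusted p under 0.05. It was passed by 6109 of all 12560 genes, 28.4% in the positive and 20.2% in the negative direction. Among genes with a mean intensity of 100 or more it was passed by 33 of 52 members and 4389 of 7628 genes. Values are log2 differences, positive where the Ts1Cje level stood higher relative to B6 in the lines than in the cells. Among DNA methylation genes the interaction was 0.94 for Dnmt3b, -0.49 for Dnmt3l and -0.19 for Tet2. Among PRC2 genes it was 0.58 for Ezh2, 0.28 for Eed and 0.19 for Suz12. The lysine methyltransferases gave 0.41 for Kmt2c, 0.28 for Kmt2d, 0.23 for Kmt2e, 0.23 for Setd1b, 0.18 for Setd2, 0.51 for Setd6 and 0.56 for Setd7. The demethylases gave 0.44 for Kdm1a, 0.39 for Kdm1b, 0.28 for Kdm2b, 0.27 for Kdm3a, 0.31 for Kdm4c, 0.39 for Kdm5a, 0.25 for Kdm5b, 0.23 for Kdm8 and -1.06 for Kdm7a. For acetyltransferases it was 0.65 for Kat2a and 0.26 for Kat6a. The deacetylases gave 0.55 for Hdac2, 0.45 for Hdac10, 0.36 for Hdac6, 0.27 for Hdac8, 0.49 for Sirt1, 0.79 for Sirt3 and 0.65 for Sirt5. The arginine methyltransferases gave 0.40 for Prmt1, 0.45 for Prmt3, 0.31 for Prmt5, 0.37 for Prmt6, 0.34 for Prmt7 and -0.22 for Prmt9. Of the 37, 24 passed in every alternative run for them. Their other kept probe sets numbered 31, of which 13 gave the same call and 18 gave none. The interaction was lost in 11 of 23 alternatives for Hdac8, and of 24 in 10 for Suz12, 8 for Kdm5b, 6 for Setd1b and 5 each for Tet2, Setd2 and Kdm4c.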

How the results depend on the processing

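Of 167 calls of members over the 5 comparisons, 112 held in direction and threshold in every alternative run for them: 31 of 43 for Ts1Cje against B6, 6 of 11 between the lines, 22 of 36 for B6 Trib1 against B6, 29 of 40 for Ts1Cje Trib1 against Ts1Cje and 24 of 37 interactions. Quantile normalization gave 8 members higher between Ts1Cje and B6 (5 as reported), 8 lower between the lines (5) and 8 negative interactions (4). Median centring over the kept probe sets gave 13 higher between Ts1Cje and B6, 22 higher and 14 lower between B6 Trib1 and B6 (13 and 23), and 9 negative interactions. All genes under that centring had 65.0% of calls higher between Ts1Cje and B6 (44.3% as reported), 69.8% between B6 Trib1 and B6 (52.3%) and 39.5% of interactions positive (58.4%); the cause was not tested. Leaving out 1 array gave 3 to 5 members higher and 33 to 41 lower between Ts1Cje and B6, 3 to 8 higher and 4 to 6 lower between the lines, 10 to 14 and 19 to 23 for B6 Trib1 against B6, 26 to 30 and 7 to 10 for Ts1Cje Trib1 against Ts1Cje, and 29 to 34 positive and 3 to 6 negative interactions. Averaging the probe sets of a gene turned the sign for B6 Trib1 against B6 in Dnmt3a (-0.0088), Kmt2e (-0.23) and Kdm5a (-0.036), and for Ts1Cje Trib1 against Ts1Cje in Dnmt3a (-0.16) and Prmt9 (0.022). Without shared probe sets Kat2a turned to 0.070 for B6 Trib1 against B6 and Kat2b to 0.046 for Ts1Cje Trib1 against Ts1Cje. These 2 settings use other probe sets of the gene. Dim members such as Kdm2a, Kdm4d and Prmt8 lay near the filter.

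The replicate number as a block gave 4 higher and 37 lower for Ts1Cje against B6, 5 and 6 between the lines, 13 and 22 for B6 Trib1 against B6, 29 and 9 for Ts1Cje Trib1 against Ts1Cje, and 33 positive and 4 negative interactions; 160 of 167 calls held and 7 were lost. Same-numbered arrays deviated from their group means with correlations from -0.45 to 0.35 over 18 pairs, and 3 of 12 arrays resembled their own number best, so the numbers were not taken as pairing.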
